A study of Mus musculus with 16 samples.

Results

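The 10 genes described here encode inflammatory chemokines that neutrophils are known to make: Cxcl1, Cxcl2 and Cxcl3, Cxcl16, and the CC chemokines Ccl2, Ccl3, Ccl4, Ccl6, Ccl7 and Ccl9. They were taken by name from the 54532 gene identifiers of the count table, each name being matched to its identifier through the GENCODE annotation of mm10. All 10 were in the table, and all 10 were among the 9851 genes that passed the filter on low counts. Liver neutrophils were sorted from 8 chimeric mice, numbered 2 to 9, and each mouse gave 1 Ifngr1_KO and 1 WT library. The Ifngr1_KO cells lacked the receptor chain Ifngr1 and carried CD45.2, and the WT cells carried CD45.1. Both grew from marrow given in shares of 50% to irradiated wild-type hosts (about 1000 cGy, C57BL/6 strain) that were left for 8 weeks. All mice then received MC38 flank tumours, MC38 being a mouse colon carcinoma line, and 1 week later the CD40 agonist antibody aCD40. Livers were taken 2 days after the antibody, so both genotypes had met the same tumour, liver and treatment. Genotype cannot be told apart from the marrow donor, the CD45 allele or the sort gate, which changed with it in all 8 mice.

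Chemokines are small secreted proteins that draw leukocytes along a gradient by engaging G protein-coupled receptors. CXCL1, CXCL2 and CXCL3 act on CXCR2, the main neutrophil chemoattractant receptor, so neutrophils that release them can call in more neutrophils. CCL3, CCL6 and CCL9 act on CCR1, and CCL4, like CCL3, draws monocytes and lymphocytes. CCL2 and CCL7 act on CCR2 and draw monocytes. CXCL16 is made as a membrane protein, is shed by proteases and binds CXCR6 on T and NKT cells, including those of the liver. Transcription of many of these genes is driven by NF-kB after signals through TNF, IL-1 and Toll-like receptors. Their mRNAs often carry AUUUA repeats that shorten their life.

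The CXCR2 ligands shared features of sequence that were not used to choose them. RefSeq (GRCm38.p6) gave a promoter window, from 250 bases before to 50 bases after the transcription start, for 6 of the 10 genes: Cxcl1, Cxcl2, Cxcl3, Ccl3, Ccl6 and Ccl9. The 3 CXCR2 ligand windows and that of Ccl3 are shown because the CXCR2 ligands held the same NF-kB motif and Ccl3, a CC chemokine at a level near that of Cxcl2, did not. Cxcl3 lies at chr5:90785851-90786150, Cxcl1 at chr5:90890995-90891294 and Cxcl2 at chr5:90903649-90903948, all on the plus strand, and Ccl3 lies at chr11:83649329-83649628 on the minus strand. Each is written 5′ to 3′, with matches to the kB consensus and the TATA box letters TATAAA in capitals.
Cxcl3: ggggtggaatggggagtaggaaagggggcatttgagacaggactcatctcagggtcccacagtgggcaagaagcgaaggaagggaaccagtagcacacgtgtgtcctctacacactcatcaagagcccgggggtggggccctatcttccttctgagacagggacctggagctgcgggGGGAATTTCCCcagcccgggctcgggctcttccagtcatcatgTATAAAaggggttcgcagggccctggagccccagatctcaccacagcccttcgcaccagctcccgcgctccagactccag
Cxcl1: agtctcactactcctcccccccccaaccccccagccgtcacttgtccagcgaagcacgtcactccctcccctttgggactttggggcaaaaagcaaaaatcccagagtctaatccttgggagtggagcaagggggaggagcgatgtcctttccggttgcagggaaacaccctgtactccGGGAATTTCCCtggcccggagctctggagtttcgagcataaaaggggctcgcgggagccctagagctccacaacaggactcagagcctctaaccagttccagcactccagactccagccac
Cxcl2: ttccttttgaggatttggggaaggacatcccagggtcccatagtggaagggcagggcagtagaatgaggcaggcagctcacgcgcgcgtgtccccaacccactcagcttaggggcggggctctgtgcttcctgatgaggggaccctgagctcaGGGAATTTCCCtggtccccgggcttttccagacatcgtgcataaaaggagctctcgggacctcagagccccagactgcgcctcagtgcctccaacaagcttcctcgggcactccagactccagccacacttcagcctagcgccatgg
Ccl3: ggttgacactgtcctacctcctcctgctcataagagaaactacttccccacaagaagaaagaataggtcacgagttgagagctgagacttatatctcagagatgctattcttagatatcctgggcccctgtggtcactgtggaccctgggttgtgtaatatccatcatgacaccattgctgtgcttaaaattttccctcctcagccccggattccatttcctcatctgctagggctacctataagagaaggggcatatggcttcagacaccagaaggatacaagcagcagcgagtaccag

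Each CXCR2 ligand window held the letters GGGAATTTCCC, in which 2 matches to the kB consensus overlap, GGGAATTTCC and, 1 base on, GGAATTTCCC. The first match began 73 bases before the start of Cxcl3, 71 before that of Cxcl1 and 97 before that of Cxcl2. Ccl9 held a single match, GGAAAGCCCC, 35 bases before its start, and no match was found in the windows of Ccl3 and Ccl6. Of 32851 windows of the same length, 4.51% held a match to the kB consensus on either strand. TATAAA on the forward strand stood 30 bases before the start of Cxcl3 and 92 before that of Ccl9, and 8.32% of windows held it. The AP-1 letters TGANTCA were found in Ccl9 (7.81% of windows). None of the 6 windows held TTCNNNGAA, the gamma-activated site (8.30% of windows), the interferon-stimulated element (3.44%), or the C/EBP letters TTGCNNAA (10.8%), each searched on both strands. These letters describe the windows only. After pairwise alignment, the windows of Cxcl2 and Cxcl3 were identical at 57.6% of columns, those of Cxcl1 and Cxcl2 at 53.6%, and those of Cxcl1 and Cxcl3 at 53.2%. Windows of a CXCR2 ligand and a CC chemokine, 9 pairs in all, were identical at 42.9 to 49.2%, and those of Ccl6 and Ccl9 at 47.1%.

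AUUUA pentamers, written ATTTA in the annotated DNA, were dense in the 3′ UTRs of the CXCR2 ligands and of Ccl3. In the longest annotated 3′ UTR of each gene (GENCODE M21, mm10) Ccl3 had 12.2 pentamers per kb, Cxcl1 had 11.8, Cxcl3 had 7.75, Cxcl2 had 7.36 and Ccl4 had 6.62. Ccl7 had 4.60 per kb, Ccl6 had 4.24, Ccl2 had 3.64, Ccl9 had 2.03 and Cxcl16 had 1.41. The median of the 8652 tested genes with a 3′ UTR was 1.21 per kb, and 32.4% of them had no pentamer. The densest 30 bases of the CXCR2 ligand 3′ UTRs, with pentamers in capitals, are shown because the clusters differ between the 3 genes.
Cxcl3: caagatggcatcttATTTAatgtttATTTA
Cxcl1: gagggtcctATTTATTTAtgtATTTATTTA
Cxcl2: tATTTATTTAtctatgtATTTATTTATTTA

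The Cxcl2 site held 5 pentamers, the Cxcl1 site 4 and the Cxcl3 site 2. Those of Cxcl2 and Cxcl1 overlapped within groups that other bases set apart, and the 2 of Cxcl3 did not overlap. Of the tested genes, 0.485% had a stretch of 30 bases with at least 4 pentamers. Cxcl2 and Cxcl1 had the densest such sites of the 10 genes.

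The genotype of the libraries was checked first. Ifngr1, the receptor chain that was targeted, had 83.9 ± 29.5 CPM (counts per M of the TMM-scaled library) in Ifngr1_KO libraries and 305 ± 46.6 CPM in WT libraries (SD, n = 8 each), and was lower in the Ifngr1_KO library of 8 of 8 mice. Library totals were 12.5 to 16.9 M counts in Ifngr1_KO libraries and 13.1 to 21.7 M in WT libraries. The share of counts from mitochondrial mRNAs was 0.475 to 2.50% (median 1.40%) in Ifngr1_KO libraries and 0.294 to 1.19% (median 0.569%) in WT libraries, and the Ifngr1_KO library of mouse 7 had the highest share. The summed neutrophil markers gave 30821 to 85749 CPM in Ifngr1_KO libraries and 37993 to 60830 CPM in WT libraries, led by the calprotectin genes S100a8 and S100a9. In the edgeR test described below, 0 of the 12 markers were called higher and 1 lower, Hdc, with a median log2 fold change of -0.24. Of all genes 2.80% were called. Hdc averaged 1515 CPM in Ifngr1_KO libraries and 2992 CPM in WT libraries.

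In mm10 the CXCR2 ligand genes form a cluster on chromosome 5, plus strand, with Cxcl3 at chr5:90786103-90789600, Cxcl1 at chr5:90891241-90893115 and Cxcl2 at chr5:90903871-90905938. The CC chemokine genes lie on chromosome 11, with Ccl2 at chr11:82035571-82037453, Ccl7 at chr11:82045712-82047525 and Ccl4 at chr11:83662584-83664683 on the plus strand. On its minus strand lie Ccl9 at chr11:83572919-83578636, Ccl6 at chr11:83587882-83593087 and Ccl3 at chr11:83647844-83649355. Cxcl16, at chr11:70453983-70459984 on the minus strand, lies apart from both clusters.

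Levels of the 10 transcripts fell into a high and a low tier. Per kb of mRNA, which allows genes to be set against each other, Ccl4 averaged 2575 CPM per kb over the 16 libraries, Cxcl2 averaged 1788, Ccl3 averaged 1626 and Ccl6 averaged 1251. These 4 were among the most abundant transcripts of the cells: of 9851 genes tested, Ccl4 ranked 41st, Cxcl2 64th, Ccl3 69th and Ccl6 95th. The next, Cxcl3, averaged 16.9 CPM per kb and was below Ccl6 in 16 of 16 libraries. Cxcl1 followed at 13.9, Cxcl16 at 7.86, Ccl9 at 4.73, Ccl2 at 4.41 and Ccl7 at 1.18 CPM per kb.

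Several neighbours in that order were not separated. Ccl4 was above Cxcl2 in 15 of 16 libraries and Ccl3 above Ccl6 in 15 of 16, but Cxcl2 was above Ccl3 in 10 of 16. Cxcl3 was above Cxcl1 in 11 of 16 libraries, in 7 of 8 Ifngr1_KO libraries and 4 of 8 WT libraries. Cxcl1 was above Cxcl16 in 10 of 16, again in 7 of 8 Ifngr1_KO libraries and 3 of 8 WT libraries. Ccl9 was above Ccl2 in 7 of 16. The order also moved with the length used: per kb of all annotated exons, Cxcl3 averaged 4.91, against 7.05 for Cxcl1 and 7.02 for Cxcl16. On that scale Ccl3 averaged 1626 and Cxcl2 1607. By CPM without a length, Cxcl2 ranked 44th of the genes tested, Ccl6 97th, Ccl4 104th and Ccl3 150th.

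**Figure D1:**
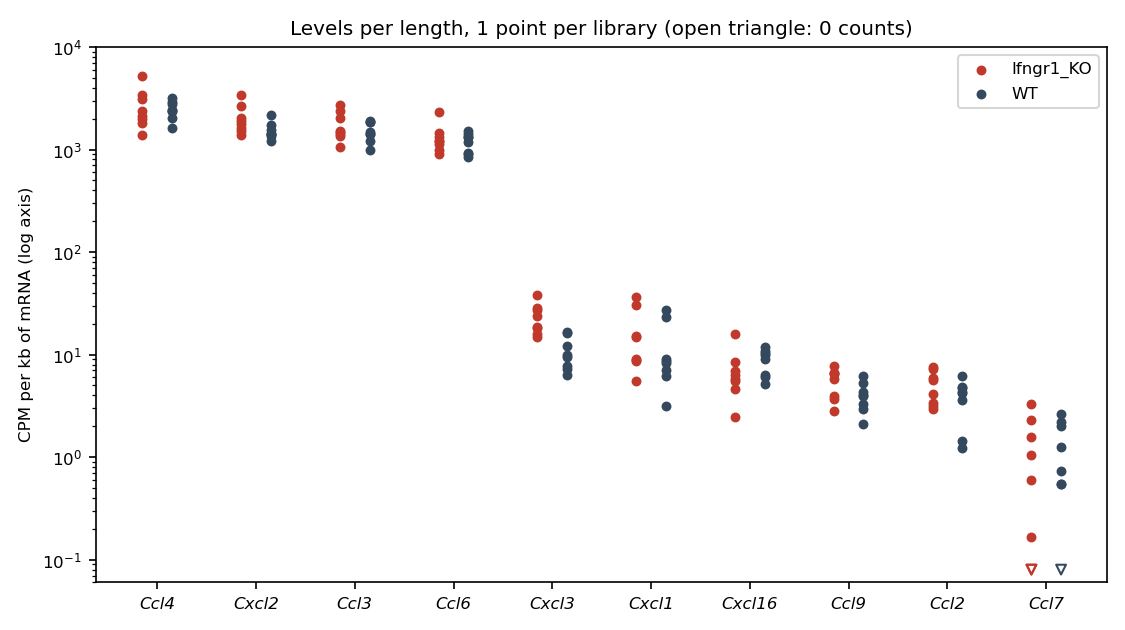
Level of each chemokine transcript in each library, in CPM per kb of mRNA on a log axis, with Ifngr1_KO libraries left of WT libraries and genes ordered by their mean; open triangles mark libraries with 0 counts. Ccl4, Cxcl2, Ccl3 and Ccl6 form a high tier with means of 1251 to 2575 CPM per kb, and the other 6 genes lie far lower, with means of 1.18 to 16.9.

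Between the genotypes, 1 of the 10 chemokines changed: Cxcl3, one of the CXCR2 ligands, was 2.17-fold higher in Ifngr1_KO neutrophils. The 6 CC chemokines and Cxcl16 did not pass the test in either direction, and none of these 7 had an unadjusted p under 0.05 in edgeR or was called by DESeq2 or limma-voom. Of the 3 CXCR2 ligands all had a positive log2 fold change, and Cxcl2 was higher in the Ifngr1_KO library of 8 of 8 mice without passing in edgeR or DESeq2, while limma-voom called it. A gene was called when edgeR's quasi-likelihood test, with mouse as a block, gave an adjusted p under 0.05 over all 9851 genes. By this rule 2.80% of all genes were called, 0.477% higher and 2.32% lower. At an unadjusted p under 0.05, 2 members stood (Cxcl3 and Cxcl2), beside 16.3% of all genes. Without mouse 7, whose Ifngr1_KO library stood apart, 2 members were called higher (Cxcl2 and Cxcl3), beside 78 higher and 334 lower among all genes. The ranges of the genotypes overlapped in all 10 members, while they did not overlap in 1.65% of all genes (0.173% higher and 1.48% lower). The members' median log2 fold change was 0.27, against 0.046 for all genes tested, and 8 of the 10 values were positive, as were 53.2% of all genes. In bulk RNA of this kind, fewer cells making a transcript and less transcript per cell cannot be told apart.

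**Figure D2:**
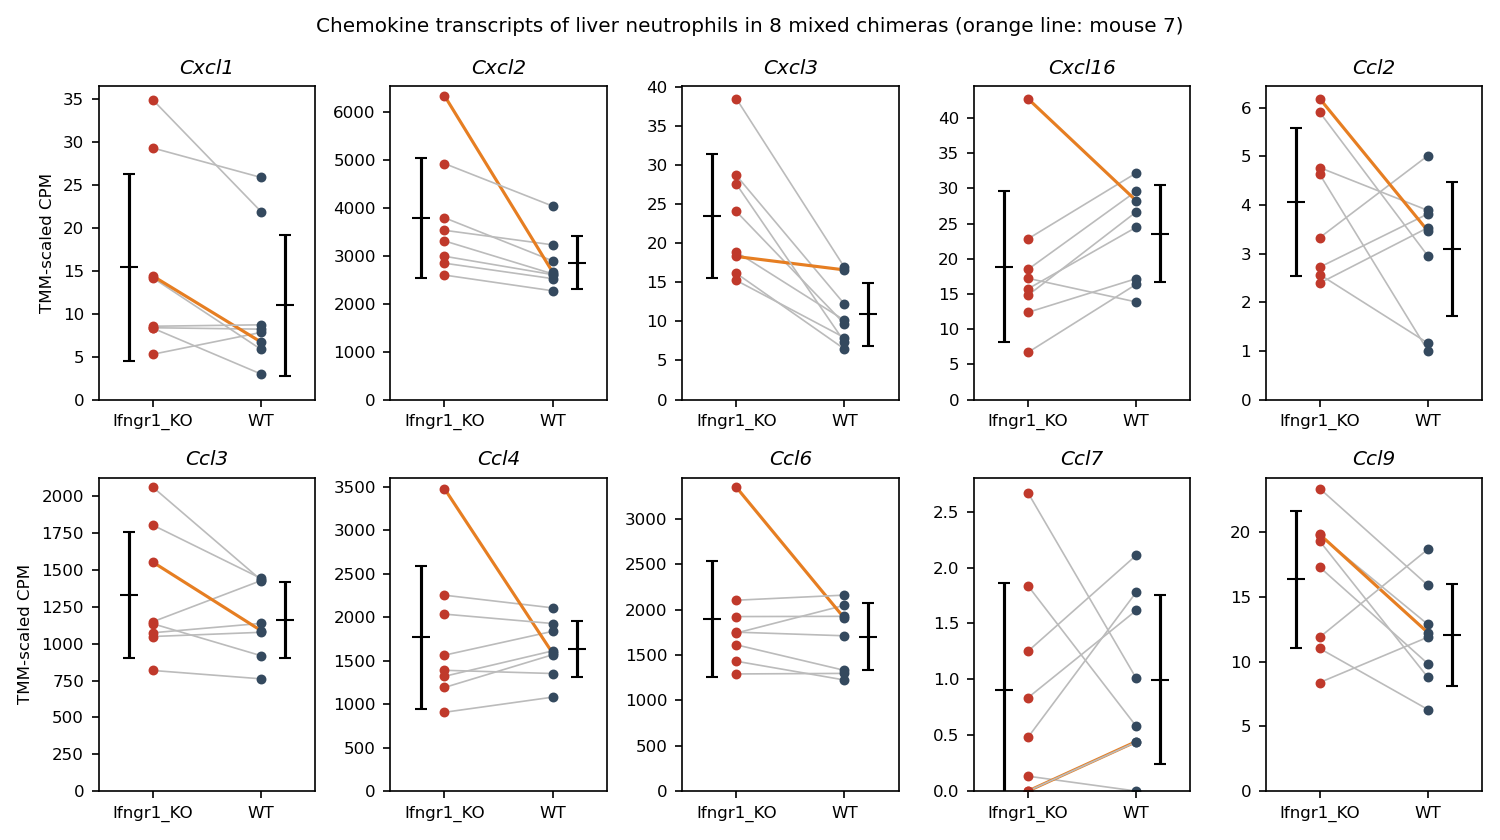
TMM-scaled CPM of the 10 chemokine genes in the Ifngr1_KO library (left of each panel) and WT library (right) of each of 8 mice, with a line joining the libraries of 1 mouse, orange for mouse 7, and black bars for mean ± SD. The lines of Cxcl2 and Cxcl3 all run down to the WT side, and the Ifngr1_KO library of mouse 7 is the highest point for Cxcl2, Cxcl16, Ccl2, Ccl4 and Ccl6.

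Cxcl3 (ENSMUSG00000029379), a scarce ligand of CXCR2 in these cells, carried the call. In mice 2 to 9 the Ifngr1_KO libraries had 24.1, 28.7, 16.2, 18.9, 15.3, 18.3, 27.6 and 38.5 CPM, against 9.70, 12.2, 6.47, 10.1, 7.93, 16.6, 7.38 and 16.9 CPM in the WT libraries. The Ifngr1_KO library was the higher in 8 of 8 mice, by 1.10-fold in mouse 7 and 3.74-fold in mouse 8 at the extremes. The groups overlapped, because the WT libraries of mice 7 and 9 lay above the lowest Ifngr1_KO libraries. The means were 23.4 ± 7.93 CPM in Ifngr1_KO libraries and 10.9 ± 4.03 CPM in WT libraries (SD, n = 8 each). The log2 fold change was 1.12 (SE 0.21, 95% interval 0.65 to 1.58, edgeR adjusted p = 0.0167). The call depended on single mice: without mouse 3 the adjusted p was 0.0591 at a log2 fold change of 1.10, without mouse 8 it was 0.0570 at 1.02, and without mouse 9 it was 0.0585 at 1.11. With the mitochondrial share as a covariate the log2 fold change was 1.41 and the adjusted p 0.0783.

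Reads of Cxcl3 were partly shared with Cxcl2. Of the 986 distinct runs of 31 bases in the Cxcl3 coding transcripts, 8.11% also stood in Cxcl2 and in no other gene, while Cxcl1 shared no such run with any other gene. In turn, 4.30% of the 1859 runs of Cxcl2 also stood in Cxcl3. Cxcl2 averaged 3792 CPM in Ifngr1_KO libraries and 2855 CPM in WT libraries, against 23.4 and 10.9 CPM for Cxcl3. A small share of the Cxcl2 reads is therefore large beside the Cxcl3 values. How the counting apportioned reads of such runs is not given in the labels or notes, and their part in the Cxcl3 values was not tested. Mouse 7 had the largest ratio for Cxcl2, 2.39-fold higher in the Ifngr1_KO library, with Cxcl3 at 1.10-fold. Mouse 8 had the largest ratio for Cxcl3, at 3.74-fold, with Cxcl2 at 1.26-fold. Both mice were picked for these extremes, and their values do not show how shared reads were apportioned.

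Cxcl2 (ENSMUSG00000058427), by far the main CXCR2 ligand of these neutrophils, ranged from 2598 to 6340 CPM (median 3422) in Ifngr1_KO libraries and from 2270 to 4037 CPM (median 2640) in WT libraries. It was higher in the Ifngr1_KO library of 8 of 8 mice, by 1.09-fold to 1.31-fold in 7 of them and by 2.39-fold in mouse 7, and the groups overlapped. Of all genes tested, 2.76% were higher in 8 of 8 mice and 4.99% were lower in 8 of 8. The log2 fold change was 0.37 (SE 0.13, 95% interval 0.09 to 0.65), with an edgeR adjusted p of 0.175. Mouse 7 decided this value: without it the log2 fold change was 0.24 and the adjusted p 0.0312. Limma-voom with all mice called it as well, at 0.30 (adjusted p = 0.0411). With the mitochondrial share as a covariate in edgeR the value was 0.12 (adjusted p = 0.948).

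Cxcl1 (ENSMUSG00000029380) varied widely between mice of the same genotype. It ranged from 5.28 to 35.0 CPM (median 11.4) in Ifngr1_KO libraries and from 2.98 to 25.9 CPM (median 8.02) in WT libraries. Mice 3 and 9 were the highest in both genotypes, with 35.0 and 29.3 CPM in Ifngr1_KO libraries and 21.9 and 25.9 CPM in WT libraries. The log2 fold change was 0.52 (95% interval -0.08 to 1.12, edgeR adjusted p = 0.375), and Cxcl1 was higher in the Ifngr1_KO library of 6 of 8 mice. With the mitochondrial share as a covariate it was 0.055 (adjusted p = 0.995). The groups overlapped over most of their range.

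Ccl3 (ENSMUSG00000000982) and Ccl4 (ENSMUSG00000018930), neighbouring CC chemokine genes on chromosome 11, did not pass. Ccl3 ranged from 818 to 2062 CPM (median 1142) in Ifngr1_KO libraries and from 762 to 1443 CPM (median 1113) in WT libraries. Ccl4 ranged from 906 to 3476 CPM (median 1475) in Ifngr1_KO libraries and from 1079 to 2106 CPM (median 1598) in WT libraries. For both genes the groups overlapped through most of their range. The log2 fold change of Ccl3 was 0.17 (95% interval -0.08 to 0.42), and that of Ccl4 was 0.02 (-0.33 to 0.37). Ccl4 turned negative without mouse 7, at -0.14, whose Ifngr1_KO library held the highest Ccl4 value. With the mitochondrial share as a covariate Ccl3 was at 0.033 and Ccl4 at -0.34.

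Ccl6 and Ccl9 (ENSMUSG00000018927 and ENSMUSG00000019122) lie side by side on chromosome 11, and both bind CCR1. Ccl6 ranged from 1291 to 3351 CPM (median 1747) in Ifngr1_KO libraries and from 1225 to 2160 CPM (median 1808) in WT libraries. Ccl9 ranged from 8.39 to 23.4 CPM (median 18.3) in Ifngr1_KO libraries and from 6.30 to 18.7 CPM (median 12.1) in WT libraries. Neither gene had groups apart. The log2 fold change was 0.13 for Ccl6 (95% interval -0.12 to 0.39, edgeR adjusted p = 0.604) and 0.44 for Ccl9 (-0.11 to 0.99, adjusted p = 0.412). Ccl9 was higher in the Ifngr1_KO library of 6 of 8 mice and Ccl6 in 4 of 8. Ccl6 was at 0.036 without mouse 7 and turned to -0.050 with the mitochondrial share as a covariate. The overlapping antisense gene E230016K23Rik averaged 1.18 CPM in Ifngr1_KO libraries and 0.694 CPM in WT libraries, where Ccl6 averaged 1901 ± 640 CPM in Ifngr1_KO libraries and 1701 ± 369 CPM in WT libraries. Of the 1410 distinct runs of 31 bases in the Ccl6 coding transcripts, 1.28% also stood in another gene. That gene was Slc17a4, and no run was shared with E230016K23Rik, although the gene spans overlap. Of the 2976 such runs of Ccl9, the scarcer gene, 4.03% also stood in other genes, none of them a member. The part of those runs in the Ccl9 values was not tested. The library kit does not mark strand, and the part of antisense reads in the Ccl6 values was not tested.

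Ccl2 and Ccl7 (ENSMUSG00000035385 and ENSMUSG00000035373), the ligands of CCR2 that draw monocytes, were near the lower limit of measurement. Ccl2 ranged from 2.39 to 6.19 CPM in Ifngr1_KO libraries and from 1.00 to 5.02 CPM in WT libraries, with a log2 fold change of 0.46 (95% interval -0.49 to 1.41). It was 0.23 without mouse 9, and 0.30 when the mitochondrial share was a covariate. Ccl7 had 0 to 47 counts in Ifngr1_KO libraries, of which 2 held none, and 0 to 34 counts in WT libraries, of which 1 held none. Its log2 fold change of -0.62 had an interval from -2.75 to 1.51, so a change in either direction was not detectable at this depth. The value turned to 1.52 with the mitochondrial share as a covariate, and with single mice left out it ran from -1.01 to -0.24 in the 5 fits that kept the gene (-0.95 without mouse 3, -1.01 without mouse 4, -0.38 without mouse 5, -0.25 without mouse 7 and -0.24 without mouse 9).

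Cxcl16 (ENSMUSG00000018920), the CXCR6 ligand, was the only member besides Ccl7 with a negative value. It ranged from 6.70 to 42.7 CPM (median 16.5) in Ifngr1_KO libraries and from 13.9 to 32.2 CPM (median 25.6) in WT libraries. It was lower in the Ifngr1_KO library of 6 of 8 mice and higher in mice 7 and 9, and the groups overlapped. The log2 fold change was -0.44 (95% interval -0.94 to 0.06), with an edgeR adjusted p of 0.362. With the mitochondrial share as a covariate it was -0.94 (adjusted p = 0.284), and limma-voom gave -0.56 (adjusted p = 0.121), with an unadjusted p under 0.05. Of the distinct runs of 31 bases in its coding transcripts, 21.6% also lay in transcripts of Zmynd15 on the other strand. Zmynd15 averaged 1.69 CPM in Ifngr1_KO libraries and 0.796 CPM in WT libraries. Its highest value was 10.5 CPM in an Ifngr1_KO library and 1.83 CPM in a WT library. Reads of the shared runs cannot be told apart, since the library kit does not mark strand.

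**Figure D3:**
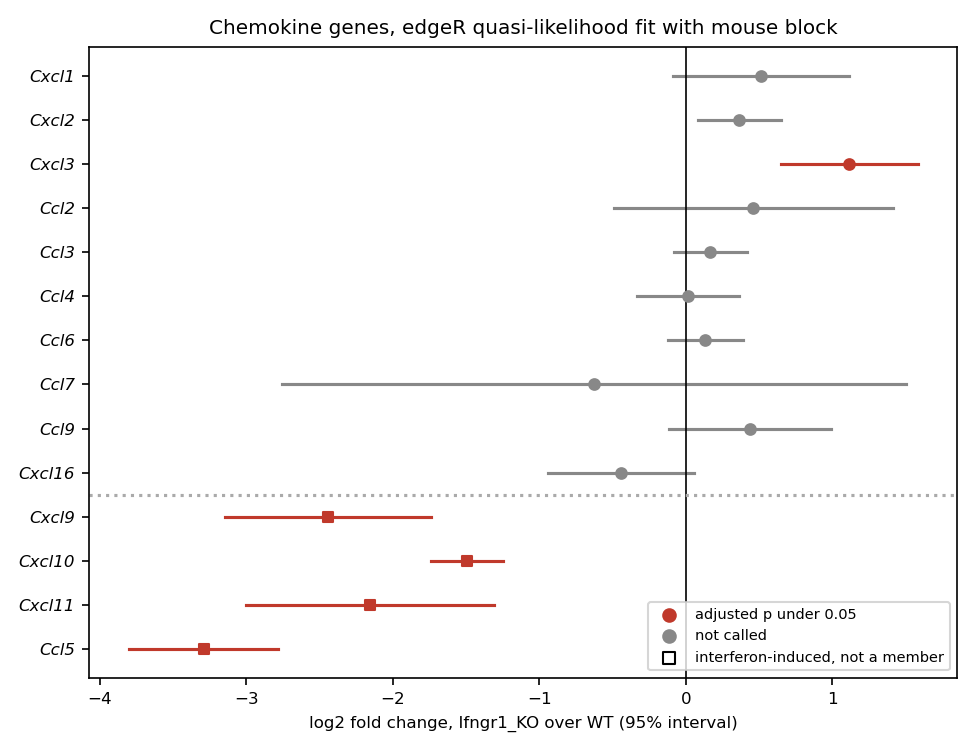
Log2 fold change (Ifngr1_KO over WT) with its 95% interval for the 10 chemokine members (circles, above the dotted line) and 4 interferon-induced chemokines (squares, below it), red where the adjusted p was under 0.05. Cxcl3 lies to the right of 0 at 1.12, the other 9 members are grey, and Cxcl9, Cxcl10, Cxcl11 and Ccl5 lie to the left at -1.49 and below.

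Summed by receptor class, the CXCR2 ligands took a larger place beside the CC chemokines in Ifngr1_KO neutrophils. The CXCR2 ligands summed to 3831 ± 1262 CPM in Ifngr1_KO libraries and 2877 ± 561 CPM in WT libraries (SD, n = 8 each), higher in 8 of 8 mice. The CC chemokines summed to 5019 ± 1712 CPM in Ifngr1_KO libraries and 4510 ± 913 CPM in WT libraries, higher in 5 of 8 mice. In mice 2 to 9 the ratio of the sums was 0.826, 0.664, 0.776, 0.764, 0.753, 0.758, 0.804 and 0.803 in Ifngr1_KO libraries, against 0.742, 0.522, 0.626, 0.622, 0.600, 0.584, 0.730 and 0.737 in WT libraries. The Ifngr1_KO library had the higher ratio in 8 of 8 mice, while the groups overlapped, because the Ifngr1_KO value of mouse 3 lay below 3 of the WT values. The within-mouse difference of the log2 ratio averaged 0.26 ± 0.10 (SD, n = 8), from 0.12 to 0.38, and 0.24 without mouse 7. A ratio within a library does not depend on scaling between libraries, and it shows unequal change without saying which sum moved. No test is given, because the genes were chosen with results known.

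The ratio rested on few genes. Cxcl2 made up 99.0% of the CXCR2 ligand sum in Ifngr1_KO libraries and 99.3% in WT libraries, and Ccl3, Ccl4 and Ccl6 together made up 99.5% of the CC sum in Ifngr1_KO libraries and 99.6% in WT libraries. Cxcl3 contributed 0.643% of the CXCR2 ligand sum in Ifngr1_KO libraries and 0.378% in WT libraries, with the Ifngr1_KO share higher in 7 of 8 mice. Ratios of single genes were chosen after the values were seen. Cxcl2 over Ccl4 ran from 1.69 to 2.87 (median 2.32) in Ifngr1_KO libraries and from 1.37 to 2.10 (median 1.72) in WT libraries, higher in 8 of 8 mice. Cxcl2 over Ccl3 and Cxcl2 over Ccl6 were each higher in 7 of 8 mice.

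**Figure D4:**
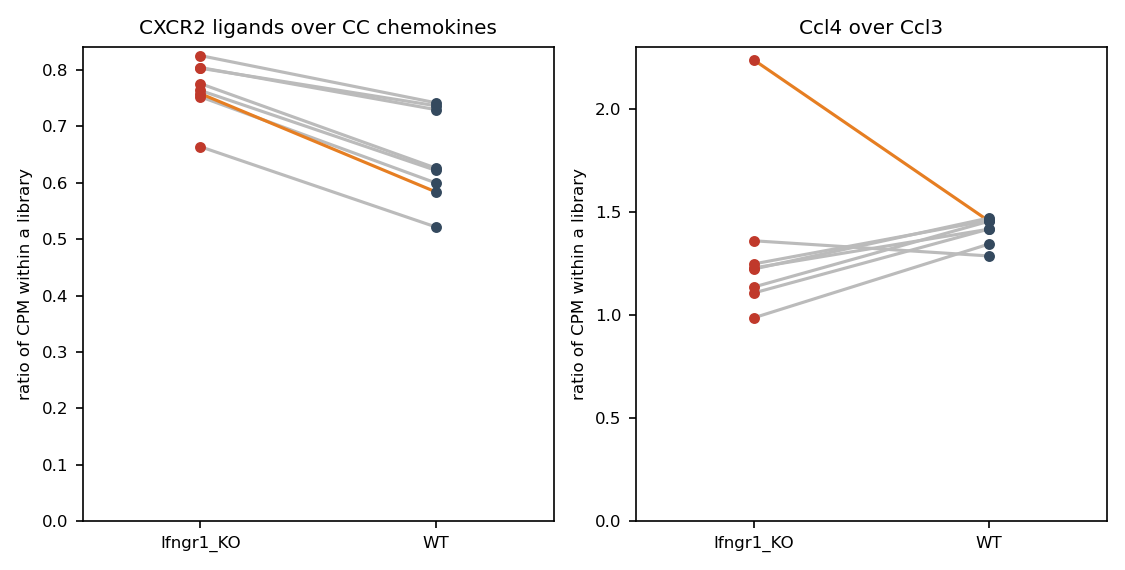
Ratio of summed CPM of CXCR2 ligands over CC chemokines (left) and ratio of Ccl4 over Ccl3 (right) within each library, Ifngr1_KO left of WT, with a line joining the libraries of 1 mouse, orange for mouse 7. All 8 lines of the left panel fall toward WT, and in the right panel the Ifngr1_KO library of mouse 7 stands at 2.24 above all others.

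Among the few pairs tested across mice within a genotype, Ccl3 and Ccl4 moved together most closely. Most pairs of members, such as Cxcl2 with Ccl4 or Ccl6, were not tested. Among the 8 WT libraries the log2 CPM of the pair gave Pearson's r = 0.98 (exact permutation p adjusted over 12 relations = 2.98e-04) and Spearman's rho = 1.00 (adjusted p = 5.95e-04), with r = 0.99 without the 2 libraries farthest from the median. Among the 8 Ifngr1_KO libraries r was 0.82 (exact permutation, adjusted p = 0.0783) and rho 0.90 (adjusted p = 0.0274), with r = 0.97 without the 2 farthest. The other 5 pairs, Cxcl1 with Cxcl2, Cxcl1 with Cxcl3, Cxcl2 with Cxcl3, Ccl2 with Ccl7 and Ccl6 with Ccl9, did not pass in either genotype. The WT correlation went with a nearly fixed proportion: Ccl4 over Ccl3 ran from 1.29 to 1.47 in WT libraries. In Ifngr1_KO libraries the proportion ran from 0.986 to 2.24, where mouse 7 gave 2.24 and the next value was 1.36. It was lower in the Ifngr1_KO library of 6 of 8 mice.

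Between the genotypes of a mouse, the 10 genes were also correlated one at a time, a family of 10 relations chosen after the values were seen. The highest were Ccl3 (r = 0.74, rho = 0.81), Cxcl1 (r = 0.73, rho = 0.55) and Cxcl2 (r = 0.53, rho = 0.83), over 8 mice by exact permutation. None passed after adjustment, the smallest adjusted p being 0.180 for r and 0.109 for rho. For Cxcl1 the relation rested on mice 3 and 9, since r was -0.13 without the 2 mice farthest from the median.

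Genes with the most similar pattern were sought among 5162 other genes whose mean log2 CPM reached 3, likeness being the smaller of the correlations over the 8 Ifngr1_KO and the 8 WT libraries. Rtp4 was nearest to both Ccl3 (r = 0.94 in Ifngr1_KO and 0.95 in WT libraries) and Ccl4 (0.93 in Ifngr1_KO and 0.97 in WT libraries), followed by Ddit3 for Ccl3 and H3f3b for Ccl4. Bcl2a1b was nearest to Cxcl2 (0.88 in Ifngr1_KO and 0.89 in WT libraries), followed by Tctex1d2. Likeness was weaker for the scarce members: Wdfy3 and Gadd45g for Cxcl1, Gusb and Mob4 for Cxcl3, Nipsnap2 and Smc1a for Ccl2, Usp47 and Ykt6 for Ccl7, F630028O10Rik and C920009B18Rik for Ccl9, and Ssr2 and Uqcr11 for Cxcl16. The libraries of a genotype share their scaling, and the best of many genes over 8 libraries is high by selection, so these names are a description.

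Chemokines that interferon gamma is known to induce fell in the same libraries. Of 13 other CXC, CX3C and XC chemokines 6 were tested, and 3 fell: Cxcl10, to 515 ± 152 CPM in Ifngr1_KO libraries against 1453 ± 421 CPM in WT libraries, Cxcl9 and Cxcl11. Their log2 fold changes were -1.49, -2.44 and -2.15. Of 13 other CC chemokines 2 were tested, and Ccl5 fell to 50.7 ± 20.8 CPM in Ifngr1_KO libraries against 472 ± 120 CPM in WT libraries, a log2 fold change of -3.29. These genes are set beside the members without a test of the difference. Cxcl5, another neutrophil attractant, was at 0 counts in all 16 libraries.

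Of 10 genes of chemokine receptors and atypical chemoattractant receptors 5 were tested, with a median log2 fold change of -0.24, and edgeR called 0. At an unadjusted p under 0.05 edgeR had 1 higher (Cxcr1) and 1 lower (Ccrl2), both called by DESeq2, and limma-voom called Ccrl2. Among all genes, 16.3% had an unadjusted p under 0.05 in edgeR. DESeq2 called 488 of all genes higher and 572 lower, and limma-voom 172 higher and 425 lower. Ccrl2, an atypical chemoattractant receptor, had 5941 ± 1784 CPM in Ifngr1_KO libraries and 7338 ± 1806 CPM in WT libraries, and was lower in the Ifngr1_KO library of 8 of 8 mice (edgeR adjusted p = 0.0697). Cxcr2 had 831 ± 155 CPM in Ifngr1_KO libraries and 981 ± 88.3 CPM in WT libraries (log2 fold change -0.26, adjusted p = 0.325).

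Among genes that act upstream of the members, 3 inducers fell. Of 15 inducing cytokines, receptors and adaptors 13 were tested, with 0 higher and 3 lower (median log2 fold change -0.39). Unadjusted p-values under 0.05 in edgeR gave 0 higher and 6 lower, beside 16.3% of all genes in either direction. DESeq2 and limma-voom each called 0 higher and 4 lower. Cd40, the receptor that the antibody engages, had a log2 fold change of -2.32. Tnf had 1148 ± 228 CPM in Ifngr1_KO libraries and 1534 ± 292 CPM in WT libraries (log2 fold change -0.42, edgeR adjusted p = 0.0198). Tlr2, a sensor of bacterial lipoproteins, had 525.6 ± 133 CPM in Ifngr1_KO libraries and 860 ± 190 CPM in WT libraries (-0.73, adjusted p = 0.0290). The calls of Tnf and Tlr2 were not stable: Tnf lost its call in 10 of 17 alternatives and Tlr2 in 7 of 17.

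Of 21 NF-kB, AP-1 and partner factors, edgeR called 0 higher and 2 lower, with a median log2 fold change of 0.08. Egr1, an immediate early gene, was higher at an unadjusted p under 0.05 in edgeR and was called by DESeq2 and not by limma-voom. The lower genes were Nfkbie (-0.67, edgeR adjusted p = 0.0156) and Nfkbib (-0.67, adjusted p = 0.0159), both inhibitors of NF-kB, and each lost its call in 6 of 17 alternatives. Of 12 regulators of unstable cytokine mRNA 11 were tested, and edgeR, DESeq2 and limma-voom each called 0 (median log2 fold change 0.24). With an unadjusted p under 0.05 in edgeR stood 1 higher (Zfp36l2) and 1 lower (Mapk14), beside 16.3% of all genes in either direction. Zfp36, which encodes the AU-rich element binding protein tristetraprolin, had 6614 ± 997 CPM in Ifngr1_KO libraries and 6911 ± 1133 CPM in WT libraries (log2 fold change -0.06, 95% interval -0.24 to 0.12). Dusp1, a phosphatase of p38 and JNK, had 1271 ± 1594 CPM in Ifngr1_KO libraries and 438 ± 164 CPM in WT libraries without passing. Of 8 proteases that can cut or shed chemokines 6 were tested and edgeR called 0 (median log2 fold change 0.06). At an unadjusted p under 0.05 edgeR had Elane higher and Mmp8 and Mmp9 lower, of which DESeq2 called Elane and Mmp8 and limma-voom Mmp8 and Mmp9. Mmp9 stood at 5211 ± 1402 CPM in Ifngr1_KO libraries and 6825 ± 764 CPM in WT libraries.

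Markers of some other cell types were measured beside these results. The summed Kupffer cell and macrophage markers had 380 to 1762 CPM in Ifngr1_KO libraries and 1242 to 1892 CPM in WT libraries, mostly from Csf1r. Of these markers 6 of 12 were tested, and Adgre1 was lower (log2 fold change -1.11). The complement genes C1qa, C1qb and C1qc had counts in 16 of 16 libraries, C1qb averaging 13.3 CPM in Ifngr1_KO libraries and 14.8 CPM in WT libraries, and Cd5l had counts in 14 of 16. Clec4f, Timd4, Cd163 and Mrc1 had counts in 1 to 3 libraries, and Vsig4 was at 0 in all. The summed monocyte markers had 2773 to 4888 CPM in Ifngr1_KO libraries and 3404 to 5235 CPM in WT libraries, mostly from Nr4a1. Nr4a1 averaged 2423 CPM in Ifngr1_KO libraries and 2474 CPM in WT libraries. Of these markers 9 of 10 were tested, and Ly6c2 was lower (log2 fold change -0.73). Ccr2 averaged 1.38 CPM in Ifngr1_KO libraries and 0.836 CPM in WT libraries, with counts in 11 of 16 libraries. The summed T and NK cell markers stayed at or under 26.6 CPM in Ifngr1_KO libraries and 15.1 CPM in WT libraries. The summed hepatocyte markers had 464 to 1709 CPM in Ifngr1_KO libraries and 404 to 1787 CPM in WT libraries, led by Trf and Fgb. All 10 hepatocyte markers were tested and edgeR called 0, beside 2.80% of all genes. These sums are well above the levels of the scarce members. The part of these other cells in the values of Cxcl1, Cxcl3, Cxcl16 and the other members was not tested.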

How the data were processed

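RNA of sorted liver neutrophils was sequenced from 8 chimeric mice (16 libraries) after oligo-dT priming from 1 ng of RNA and 13 cycles of PCR, without molecular identifiers or strand marking, per the labels' protocols. The authors deposited whole-number estimated counts per Ensembl gene; the submitters' processing notes name mm10, Salmon 0.14.2 and DESeq2 1.22.1, and no source used here gives other steps. Groups and mouse numbers came from sample titles. Same-numbered libraries come from 1 mouse; across genes, their deviations from group means correlated at 0.138 on average (0.0246 to 0.314), against -0.018 between mice.

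Counts were filtered by filterByExpr (9851 genes, 99.7% of counts), scaled by TMM and tested with edgeR 4.0.16 in R 4.3.3 (glmQLFit and glmQLFTest, robust, mouse as a block, Benjamini-Hochberg over all genes, threshold 0.05). SEs were derived from the log2 fold change and its F statistic (ratio to the root of F). CPM per kb used the longest coding mRNA of GENCODE M21. Alternatives used DESeq2 1.42.0, limma-voom (limma 3.58.1), other scalings and filters, no block, the mitochondrial share as covariate, a threshold of 0.1, and each mouse left out. Calculations were tested on simulated data. Totals of 12.5 to 21.7 M counts limit genes at a few CPM. Replicates are mice, but counts include PCR copies.

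The members, the gene lists and the tests were chosen with earlier results of these data known. Named genes were the 10 members, Ifngr1, up to 3 called genes with the smallest p per pathway list or, with none called, the 2 with the highest CPM, the 2 genes most like each member (not reported here for Ccl6), and the 2 highest of each marker list used. Cxcl5, Zmynd15, E230016K23Rik, Cxcr1, Egr1, Zfp36l2, Mapk14, Elane, Hdc, Ccr2 and the Kupffer cell markers beyond the first 2 were named after their values were seen. Library measures, sums, ratios and sequence features were described without a test. Correlations within a genotype used two-sided exact permutation tests.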

Additional observations from a re-analysis of the deposited data

Results flagged for a closer look

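Among the 20 sets of 8 libraries examined (10 genes in each genotype), 2 held a library far from the rest by Dixon's gap criterion, and chance flags about 1 in 20 such sets. Both were the Ifngr1_KO library of mouse 7. Ccl6 stood at 3351 CPM there, and the next Ifngr1_KO library had 2104 CPM. Cxcl16 stood at 42.7 CPM there, and the next Ifngr1_KO library had 22.8 CPM. The same library had the highest mitochondrial share, 2.50%, and the lowest total, 12.5 M counts. Without mouse 7 the log2 fold change of Ccl6 was 0.036 and that of Cxcl16 was -0.59, and neither was called.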

How the results depend on the processing

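Of 17 alternatives, Cxcl3 kept its direction in all, at log2 fold changes of 1.02 to 1.41, and its call in 13. The count of higher members was 2 with limma-voom (Cxcl2 and Cxcl3), 0 with the mitochondrial covariate and 0 to 2 with single mice left out; no member was called lower under any alternative. Over all genes, lower and higher calls numbered 572 and 488 with DESeq2, 425 and 172 with limma-voom, 85 and 8 with the mitochondrial covariate, and 361 and 142 at a threshold of 0.1. Higher calls were 102 with library totals, against 164 lower (this scaling moved the all-gene median log2 fold change to 0.16), and 31 with no filter. Leaving out single mice gave 144 to 334 lower and 19 to 78 higher calls. With no replicate block, 216 genes were lower and 52 higher; Cxcl3 stayed called (1.10, adjusted p = 0.0247) and Cxcl2 did not (0.41, adjusted p = 0.283), but Tnf and Nfkbie lost their calls. The log2 ratio of CXCR2 to CC sums was 0.24 to 0.28 with each mouse left out and 0.28 per kb.

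No called gene named here changed sign. Some uncalled values did, and the cause was not tested: Ccl4 with limma-voom (-0.056), the mitochondrial covariate (-0.34), no filter (-0.0083) and without mouse 7 (-0.14; range with each mouse left out -0.14 to 0.076). With the mitochondrial covariate so did Ccl6 (-0.050), Ccl7 (1.52), S100a8 (-0.18), Csf1r (0.26) and Nr4a1 (0.16). With library totals so did Zfp36 (0.050), S100a9 (0.017) and Nr4a1 (0.040), and Nr4a1 also with limma-voom (0.024) and without mouse 7 (0.063; range with each mouse left out -0.12 to 0.063). Ccl7 could not be fitted in 3 of 8 fits with a mouse left out, having too few counts for the filter.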
